A study of Mus musculus with 9 samples.

Results

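The forkhead family of transcription factors (Fox genes) was followed across 3 sorted populations of dermal cells from neonatal mouse back skin, taken at postnatal day 2. Members were all genes whose platform symbol had the form Fox, a letter from a to s, a number and at most 1 further letter. This gave 37 of 18193 genes with a probe set of their own, each read through 1 probe set, the brightest on average over the 9 arrays. Other genes of this form are not analysed here. Gate R3 held cells positive for both GFP and CD133, which the labels assign to the dermal papillae of guard, awl and auchene hairs. Gate R2 held cells positive for CD133 and negative for GFP, assigned to the papillae of zigzag hairs. Gate R1 held cells negative for both, the dermal cell pool without papillae. Each of 3 mice, numbered 2, 4 and 5, gave 1 array per gate, from about 50000 cells of each population. A dermal papilla is a small knot of mesenchyme under each hair follicle that instructs its growth. Prom1 encodes CD133, and in such sorts GFP is known as a reporter of Sox2. Neither the strain nor the GFP allele is named in the labels. The cells were bulk populations, so fewer cells of a type and less RNA per cell cannot be told apart.

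Forkhead factors bind DNA through a winged helix domain. Members of the A class can open closed chromatin, and members of the O class sit in the nucleus when insulin signalling is low and are exported when the kinase AKT phosphorylates them. In skin, Foxn1 is the gene of the hairless nude mouse, Foxq1 that of the satin mouse with an altered hair medulla, and Foxc1 is known for keeping hair follicle stem cells at rest. In mesenchyme outside the skin, Foxd1 marks stromal progenitors of the kidney, and Foxf1 and Foxf2 answer to hedgehog ligands from nearby epithelium.

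Windows around the start sites of 5 members are shown because these genes, or their nearest relatives, carried the differences described below: Foxd1, Foxd2 and Foxd3, and both members of the chromosome 13 cluster for which the table held a window. Each runs from 250 bases before to 50 bases after the start on the gene's own strand, from RefSeq (GRCm38.p6), and capitals mark the 5 letters of a CCAAT box or the 6 letters of a GC box (GGGCGG) on either strand.
Foxd1, chr13:98353995-98354294, plus strand: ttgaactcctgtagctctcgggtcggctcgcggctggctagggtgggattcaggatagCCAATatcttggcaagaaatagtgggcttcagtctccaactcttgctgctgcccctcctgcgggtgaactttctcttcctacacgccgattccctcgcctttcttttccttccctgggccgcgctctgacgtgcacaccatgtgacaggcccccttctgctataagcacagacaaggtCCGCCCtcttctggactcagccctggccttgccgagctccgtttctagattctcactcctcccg
Foxd2, chr4:114908849-114909148, minus strand: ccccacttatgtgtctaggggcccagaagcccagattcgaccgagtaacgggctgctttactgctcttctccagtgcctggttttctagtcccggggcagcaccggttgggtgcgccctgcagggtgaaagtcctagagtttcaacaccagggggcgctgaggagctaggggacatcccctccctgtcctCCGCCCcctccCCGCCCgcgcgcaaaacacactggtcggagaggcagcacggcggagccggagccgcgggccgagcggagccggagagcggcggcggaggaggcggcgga
Foxd3, chr4:99656049-99656348, plus strand: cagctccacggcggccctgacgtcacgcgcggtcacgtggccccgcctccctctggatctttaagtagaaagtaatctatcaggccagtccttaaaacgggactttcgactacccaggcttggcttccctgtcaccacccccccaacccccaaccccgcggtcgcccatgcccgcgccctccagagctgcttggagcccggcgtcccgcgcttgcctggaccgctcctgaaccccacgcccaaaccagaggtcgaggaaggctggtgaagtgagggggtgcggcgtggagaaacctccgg
Foxf2, chr13:31625566-31625865, plus strand: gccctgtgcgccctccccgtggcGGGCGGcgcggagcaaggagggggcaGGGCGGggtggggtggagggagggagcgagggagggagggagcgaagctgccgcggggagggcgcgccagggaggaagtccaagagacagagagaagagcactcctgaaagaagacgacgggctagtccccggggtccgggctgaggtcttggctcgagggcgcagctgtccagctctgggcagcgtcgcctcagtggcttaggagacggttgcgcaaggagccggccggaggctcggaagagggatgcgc
Foxc1, chr13:31806396-31806695, plus strand: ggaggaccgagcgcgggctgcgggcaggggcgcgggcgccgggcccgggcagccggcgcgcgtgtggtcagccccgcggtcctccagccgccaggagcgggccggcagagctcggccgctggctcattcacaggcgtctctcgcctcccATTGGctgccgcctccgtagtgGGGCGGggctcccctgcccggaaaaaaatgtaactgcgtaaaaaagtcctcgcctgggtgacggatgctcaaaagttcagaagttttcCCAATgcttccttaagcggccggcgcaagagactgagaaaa
The Foxd1 window held 1 CCAAT box and 1 GC box, that of Foxd2 held 2 GC boxes, that of Foxd3 held neither, that of Foxf2 held 2 GC boxes and that of Foxc1 held 2 CCAAT boxes and 1 GC box. None of these 5 held the forkhead motif GTAAACA on either strand.

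The table held 29 windows for 24 of the 37 members, and 32851 windows in all. A GC box was found in 72.4% of member windows and 35.7% of all windows. The CCAAT box was found in 44.8% of member windows and 37.4% of all, and the TATA box (TATAAA) in 10.3% and 13.6%. The SOX motif AACAAAG was found in 13.8% of member windows and 5.85% of all. That share is 4 member windows, of Foxa1, Foxp3 and Foxp1, with Foxp1 counted in more than 1 window. GTAAACA was found in 3.45%, which is 1 window, and 3.65%. Each motif was searched as spelled on both strands. None of these motifs holds another, and a match is a description of letters, not of a bound site. Member windows had a median GC content of 63%, against 52.7% for all windows, and 69% of them reached a GC content of 60%, against 29.5% of all, so the GC box was read in windows richer in G and C than most. The windows of Foxd1 and Foxd3 had GC contents of 57.7% and 65.7%.

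The arrays gave log2 expression values with medians of 6.13 to 6.20. A guide to background was set for each array from 44 probe sets of olfactory receptor genes as their 95th percentile, which lay between 5.14 and 5.46, so a change between levels within or below it is one between dim signals. Pairs of arrays correlated at 0.977 to 0.985 within a gate, and over the same probe sets at 0.967 to 0.974 for R3 with R2, 0.962 to 0.968 for R2 with R1 and 0.951 to 0.959 for R3 with R1. Both gate genes followed the sort, with Sox2 averaging 10.66 in R3, 7.08 in R2 and 4.19 in R1, and Prom1 averaging 10.32, 11.85 and 7.43. RNA quality was read from the beta-actin and Gapdh controls. The 3' minus 5' signal of beta-actin was 0.119 to 0.195 in R3, 0.106 to 0.216 in R2 and 0.0435 to 0.0691 in R1 (log2). That of Gapdh was far larger on every array, at 2.68 to 3.02 in R3, 2.57 to 2.85 in R2 and 2.63 to 2.97 in R1. It overlapped between the gates. The part of the beta-actin gap in the changes against R1 was not tested. Against R1, 6 of 10 markers of dermal fibroblasts, 4 of 5 of adipocytes and 6 of 8 of skeletal muscle were called lower in R3, and none was called higher. The number of arrays, 3 per gate, limits the precision.

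Differences between gates were tested with limma over all 18193 genes, and a gene was called at a Benjamini-Hochberg adjusted p under 0.05. In R3 against R2, 3 members were called (8.11%, against 5.03% of all genes), of which 2 were higher and 1 was lower. In R2 against R1, 6 members were called (16.2%, against 13.1% of all genes), 3 in each direction. In R3 against R1, 9 members were called (24.3%, against 18.7% of all genes), of which 4 were higher and 5 lower. These shares lie near those of all genes. The family had no common shift, with a median log2 change of 0.02 in R3 against R2, -0.03 in R2 against R1 and 0.05 in R3 against R1, beside medians of -0.01, -0.02 and -0.01 over all genes. At an unadjusted p under 0.05 the counts were 10, 13 and 12 members, beside 18.1%, 26.5% and 31.2% of all genes. The arrays of the gates compared did not overlap for 7, 12 and 15 members, beside 22.7%, 30.8% and 34.4% of all genes. Leaving out single arrays moved some of these counts. The 1 lower member in R3 against R2 was 0 without the array of mouse 2 or 4 of either gate or the R3 array of mouse 5, and 4 without the R2 array of mouse 5. The 3 higher members in R2 against R1 were 5 without the R2 array of mouse 5, and the 3 lower ones were 0 without that array and 1 without any 1 R1 array or the R2 array of mouse 4. The 5 lower members in R3 against R1 were 3 without the array of mouse 2 of either gate. The lower count in R3 against R2 was 2 with the mouse as a fixed block and 1 with it as a random effect. In total 10 members were called in at least 1 comparison, and 27 in none. Values were above the guide on all 3 arrays of a gate for 20 members in R3, 19 in R2 and 21 in R1, and 14 members met this in no gate.

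**Figure D1:**
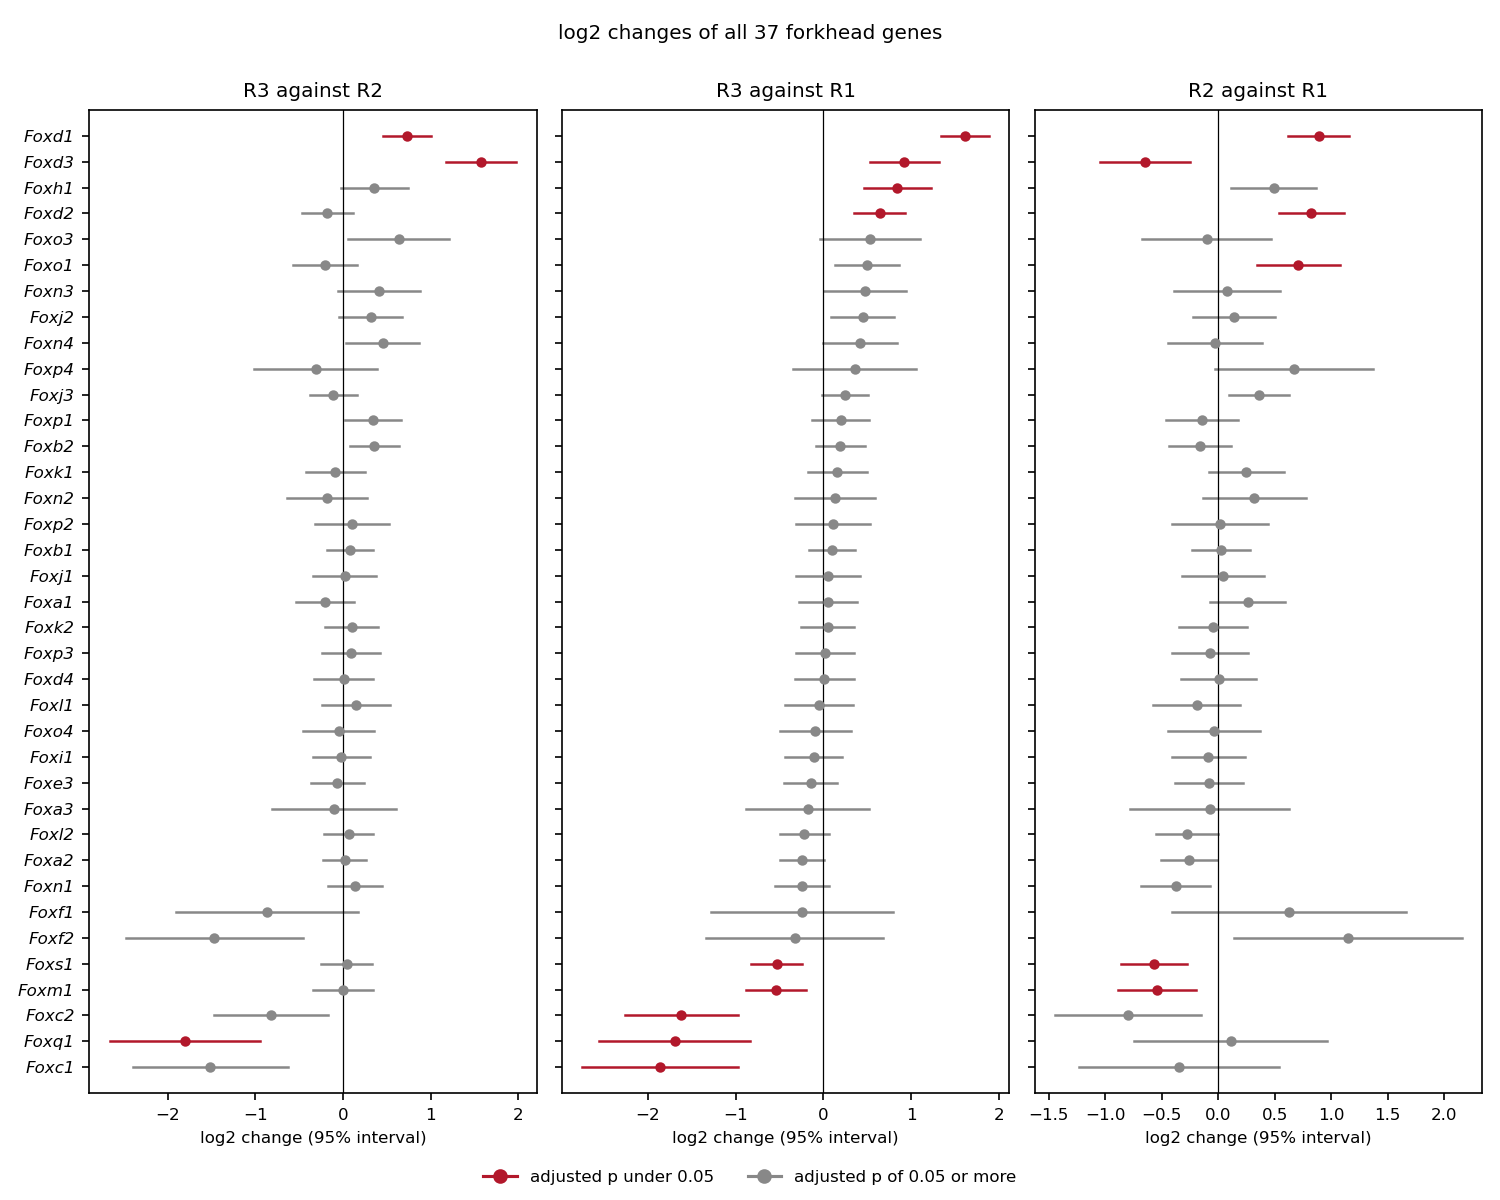
log2 change (x axis) of each of the 37 forkhead genes (y axis) in R3 against R2, R3 against R1 and R2 against R1, as points with 95% intervals from the limma fit, in red where the adjusted p was under 0.05. Foxd1 lies right of 0 in every panel, Foxq1, Foxc1 and Foxc2 lie at the far left of the R3 against R1 panel, and the intervals of Foxf1 and Foxf2 are among the widest.

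The D class held the clearest differences among the members. Foxd1 was highest in R3, lower in R2 and lowest in R1. Its log2 values were 10.56, 10.37 and 10.63 in R3 (mice 2, 4 and 5), 9.82, 9.74 and 9.81 in R2, and 8.79, 8.91 and 9.005 in R1. All 3 gates were apart, with no array of one gate within the range of another, and all values lay far above the guide. The means were 10.52 ± 0.14 in R3, 9.79 ± 0.047 in R2 and 8.90 ± 0.11 in R1 (SD, n = 3 each). The log2 change was 0.73 in R3 against R2 (SE 0.12, adjusted p = 0.00769), 0.89 in R2 against R1 (adjusted p = 0.00129) and 1.62 in R3 against R1 (adjusted p = 2.78e-05), and each difference had the same sign in all 3 mice. Foxd1 kept these calls in every alternative tried except a 2-fold minimum, which both smaller changes do not reach. Of 17 dermal papilla markers, 16 were called higher in R3 against R1, 11 higher in R2 against R1, and 7 higher and 1 lower in R3 against R2. The lower one was Prom1 (-1.54, adjusted p = 0.00112). The log2 of their summed level was 15.41 to 15.59 in R3, 14.82 to 14.89 in R2 and 13.72 to 13.85 in R1. Sox2 and Prom1, which define the sort, are among those 17. The share of papilla cells in the Foxd1 differences was not tested.

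Foxd2, a relative known from kidney mesenchyme, did not separate the papilla gates from each other. It stood at 6.96, 6.85 and 6.78 in R3, 6.93, 7.24 and 6.95 in R2, and 6.29, 6.12 and 6.24 in R1. R3 and R2 overlapped, and every array of both lay above every R1 array. The log2 change was 0.64 in R3 against R1 (SE 0.13, adjusted p = 0.00725) and 0.82 in R2 against R1 (adjusted p = 0.00281), against -0.18 in R3 against R2 (adjusted p = 0.52, 95% interval -0.47 to 0.11). A second Foxd2 probe set was under the guide on all 9 arrays and was not called, and with the mean of both probe sets the change in R2 against R1 was 0.35 (adjusted p = 0.0724).

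Foxd3, which specifies the neural crest in the embryo and holds back the pigment cell fate, was above the guide in R3 alone. Its values were 6.50, 5.76 and 5.97 in R3, 4.45, 4.45 and 4.60 in R2, and 5.18, 5.12 and 5.15 in R1. The 3 gates did not overlap, and all R2 and R1 values lay under the guide of their arrays. The change was 1.58 in R3 against R2 (SE 0.18, adjusted p = 0.000866) and 0.93 in R3 against R1 (adjusted p = 0.00565). The difference between the 2 dim gates, -0.65 in R2 against R1 (adjusted p = 0.0403), passed the threshold but lost it when any 1 array of R2 or R1, or the R3 array of mouse 5, was left out (adjusted p of 0.0504 to 0.116). Markers of Schwann cells, which descend from the neural crest, moved with Foxd3: 7 of the 8 measured were called higher in R3 against R2 and 5 in R3 against R1, none was called lower in either, and 3 were called lower in R2 against R1. The log2 of their summed level was 12.69 to 12.88 in R3, 9.20 to 9.47 in R2 and 10.44 to 10.94 in R1, in the same order as Foxd3, and 2 of the 8 were under the guide throughout R2 and 1 throughout R1. Melanocyte markers, also of neural crest origin, ran otherwise, with 6 of 7 called lower in R3 against R1 and none called in R3 against R2. The part of such cells in the Foxd3 result was not tested.

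**Figure D2:**
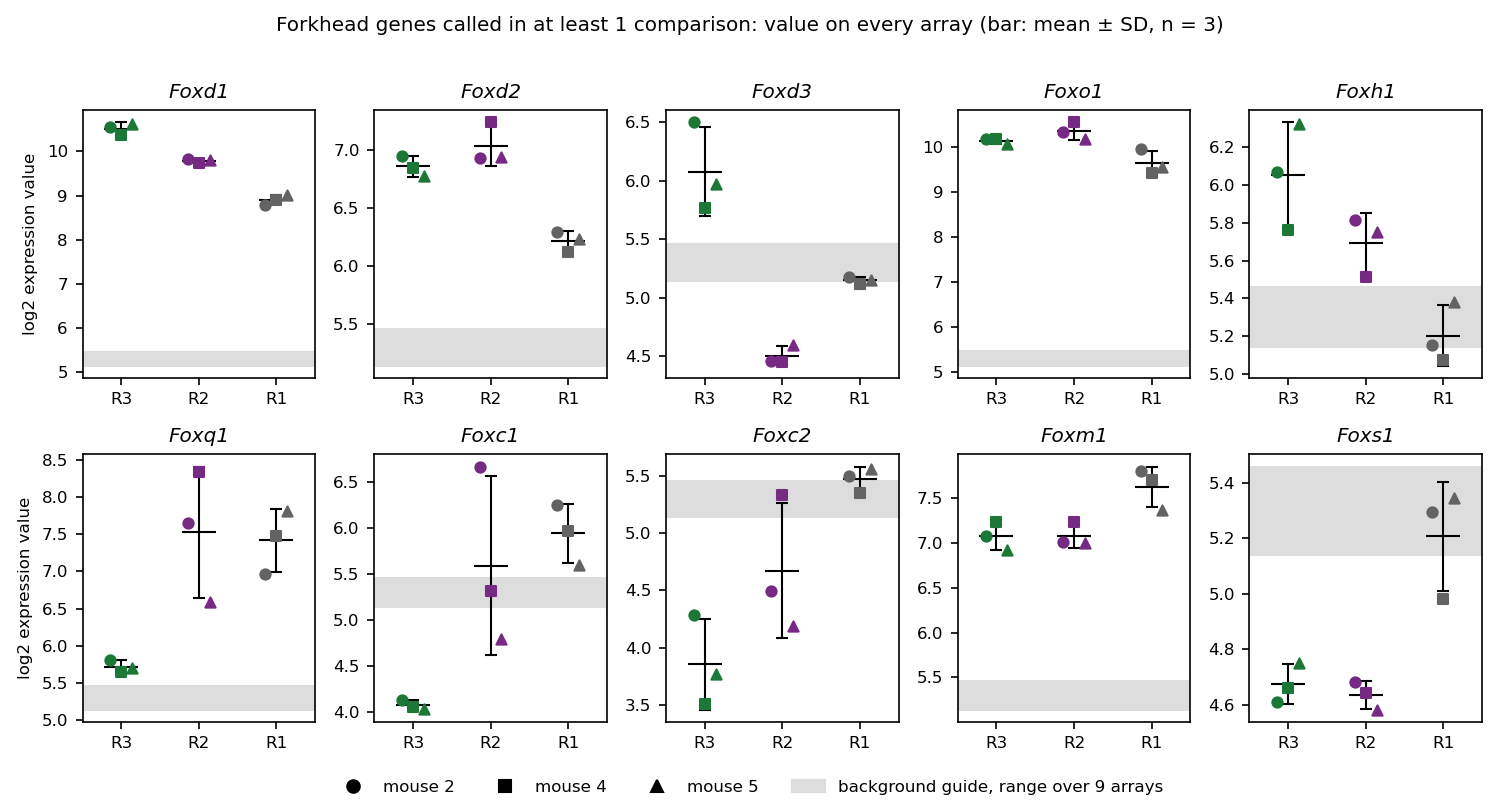
log2 expression values (y axis, own scale per gene) on each of the 9 arrays for the 10 forkhead genes called in at least 1 comparison, with marker shapes for mice 2, 4 and 5, bars for mean ± SD (n = 3) and a grey band for the range of the background guide. Foxd1 falls in steps over R3, R2 and R1, Foxd3 is above the band in R3 alone, and the R2 arrays of Foxq1, Foxc1 and Foxc2 are spread widely.

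Among 17 neural crest factors, 5 were called higher in R3 against R2 and 1 lower, and the lower one, Snai1 (-1.16, adjusted p = 0.0122), was lost without the R3 array of mouse 2. The receptor Erbb3 averaged 10.08 in R3, 7.08 in R2 and 9.55 in R1, with a change of 3.00 in R3 against R2 (adjusted p = 0.000235) and -2.46 in R2 against R1 (adjusted p = 0.000372). The transcription factor Tfap2b averaged 6.91, 5.10 and 7.20, with changes of 1.81 (adjusted p = 0.00398) and -2.10 (adjusted p = 0.00085). Sox10, the glial and neural crest factor, was 0.92 higher in R3 against R2 (adjusted p = 0.00562). Against R1, where Foxd3 was also higher in R3, neither Erbb3 (0.53, adjusted p = 0.22) nor Tfap2b (-0.28, adjusted p = 0.527) was called, and the list had 3 genes higher and 1 lower (2 lower without the R3 array of mouse 5). The comparison of R2 with R1 had 3 genes of the list higher and 4 lower, and the endothelin receptor gene Ednrb, with the lowest p there, was higher (1.55, adjusted p = 5.17e-05). The list median was 0.13 in R3 against R2 and 0.11 in R3 against R1, beside -0.01 over all genes in both. The share called was 35.3% in R3 against R2, 41.2% in R2 against R1 and 23.5% in R3 against R1. Beside these stood 5.03%, 13.1% and 18.7% of all genes. Sox10, Erbb3 and Ngfr were also among the Schwann cell markers above, so the counts of those lists are not separate.

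Foxq1, Foxf2 and Foxc1 follow each other on chromosome 13 with 0 protein-coding genes between neighbours in the RefSeq table. Foxf1, Foxc2 and Foxl1 stand together on chromosome 8, with 1 protein-coding gene, Mthfsd, between Foxf1 and Foxc2. Foxq1 was lower in R3 than in either other gate, with values of 5.81, 5.65 and 5.70 in R3, 7.66, 8.34 and 6.58 in R2, and 6.97, 7.48 and 7.81 in R1. No R3 array reached the lowest R2 or R1 array, while R2 and R1 overlapped. The change was -1.80 in R3 against R2 (SE 0.38, adjusted p = 0.0267) and -1.70 in R3 against R1 (adjusted p = 0.0129), with 0.11 in R2 against R1 (adjusted p = 0.901). The call against R2 was lost when the R2 array of mouse 2 or 4, or any 1 R3 array, was left out (adjusted p of 0.0651 to 0.0914). The same call was lost with the mean of the Foxq1 probe sets (-1.09, adjusted p = 0.0596) and with the 6 arrays of the comparison alone (adjusted p = 0.0535). A second Foxq1 probe set, above the guide on all arrays, had smaller differences in the same direction, -0.37 in R3 against R2 and -0.72 in R3 against R1, neither of them called (adjusted p = 0.606 and 0.135, with probe sets tested singly).

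Foxc1 and Foxc2, a pair known for the building of blood and lymphatic vessels, were also lower in R3 than in R1. Foxc1 had values of 4.14, 4.06 and 4.04 in R3, 6.67, 5.32 and 4.79 in R2, and 6.25, 5.97 and 5.60 in R1. The R3 arrays lay under the guide and below every other array, and the R2 arrays reached from under the guide to above every R1 array. Its change was -1.86 in R3 against R1 (SE 0.40, adjusted p = 0.00972), -1.51 in R3 against R2 (adjusted p = 0.0631) and -0.35 in R2 against R1 (adjusted p = 0.641). With the mouse as a fixed block, the change in R3 against R2 was called (adjusted p = 0.0372), but not with the mouse as a random effect (adjusted p = 0.0502). It was also called without the R2 array of mouse 5 (-1.91, adjusted p = 0.0226) and under a trended, robust variance model (adjusted p = 0.0497). The change in R2 against R1 was -0.89 without the R2 array of mouse 2 (adjusted p = 0.0417) and 0.051 without that of mouse 5 (adjusted p = 0.95). A second Foxc1 probe set was under the guide on every array, and with the mean of both the change in R3 against R1 was -0.98 (adjusted p = 0.0902).

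Foxc2 had values of 4.29, 3.51 and 3.77 in R3, 4.49, 5.34 and 4.19 in R2, and 5.50, 5.35 and 5.57 in R1. Only the R1 arrays were all above the guide, and the R3 and R2 ranges overlapped. The change was -1.62 in R3 against R1 (SE 0.29, adjusted p = 0.00396), -0.82 in R3 against R2 (adjusted p = 0.162) and -0.80 in R2 against R1 (adjusted p = 0.107). Without the R2 array of mouse 4 the change in R2 against R1 was -1.13 (adjusted p = 0.0189). Of 5 markers of lymphatic endothelium, 3 were called lower and none higher in R3 against R1 and in R3 against R2, and 3 higher and 1 lower in R2 against R1, with summed log2 levels of 10.02 to 10.38 in R3, 11.30 to 11.55 in R2 and 11.11 to 11.29 in R1. The 1 lower call was lost without the array of mouse 5 of either R2 or R1. Of 12 endothelial markers, 6 were called lower and 2 higher in R3 against R1, and the count of 2 was 1 with the mouse as a fixed block or without the R3 array of mouse 4 or 5 or the R1 array of mouse 2 or 4. The part of both lists in the Foxc1 and Foxc2 differences was not tested.

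Foxf1 and Foxf2, the hedgehog-responsive pair of mesenchymal factors, were high on 2 of the 3 R2 arrays. Foxf2 had values of 5.32, 5.43 and 5.64 in R3, 7.51, 7.66 and 5.64 in R2, and 6.09, 5.72 and 5.57 in R1. The R2 arrays of mice 2 and 4 stood above all others, and that of mouse 5 lay within the ranges of R3 and R1. The change was -1.47 in R3 against R2 (SE 0.45, adjusted p = 0.107) and 1.14 in R2 against R1 (adjusted p = 0.136). Without the R2 array of mouse 5, both were called, at -2.12 (adjusted p = 0.000676) and 1.79 (adjusted p = 0.000854). That array is the one that deviates for Foxf2, so leaving it out widens these changes by construction. No other alternative tried brought a call of Foxf2.

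Foxf1 had values of 5.70, 5.06 and 5.57 in R3, 6.87, 6.99 and 5.08 in R2, and 5.47, 6.21 and 5.39 in R1. The same 2 R2 arrays were the highest, and the R2 array of mouse 5 was the second lowest of all 9. Its changes of -0.87 in R3 against R2 (adjusted p = 0.368) and 0.62 in R2 against R1 (adjusted p = 0.445) were not called. Without that array they were -1.49 (adjusted p = 0.0233) and 1.24 (adjusted p = 0.0261), and no other alternative tried brought a call of Foxf1. Second probe sets of both genes were dim and were not called in any comparison. Neither gene was called in R3 against R1 (-0.25 for Foxf1, adjusted p = 0.771, and -0.33 for Foxf2, adjusted p = 0.682).

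Foxq1, Foxf2, Foxc1, Foxf1 and Foxc2 were each lowest in mouse 5 among the R2 arrays, but their neighbour Foxl1 was not. The R2 array of mouse 5 lay below the mean of the other 2 R2 arrays by a log2 difference of -1.95 for Foxf2, -1.84 for Foxf1, -1.41 for Foxq1, -1.20 for Foxc1 and -0.72 for Foxc2. Thus 4 members lay at least 1 log2 unit below, beside 242 genes, or 1.33%, of all genes, and 0.418% of genes lay as far above. The SD over the R2 arrays was 1.13 for Foxf2, 1.07 for Foxf1, 0.97 for Foxc1, 0.88 for Foxq1 and 0.59 for Foxc2, against a median of 0.177 and a 95th percentile of 0.545 over all genes. Foxl1, the further member on chromosome 8, was under the guide on all 9 arrays. Its R2 values were 5.07, 4.43 and 5.03 (mice 2, 4 and 5), so that of mouse 4 was the lowest. Mthfsd, which lies between Foxf1 and Foxc2, had R2 values of 7.90, 6.53 and 5.53, was likewise lowest in mouse 5 and was called in no comparison (adjusted p of 0.571 to 0.915). Over the whole family, 13 of 37 members were lowest in that array, beside 39% of all genes.

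The genes that were lowest in the R2 array of mouse 5 by the widest margin were picked after their values were seen. They were led by the cartilage collagen Col9a1, with R2 values of 9.87, 10.53 and 4.97, and included the cartilage collagen Col2a1 (7.99, 9.22 and 5.30) and the posterior patterning gene Hoxd13 (9.34, 9.90 and 6.83). Bmp5, Myh8, Dner and Dlx5 were also among the genes with the widest margins. By the way they were picked, all of these had to be lower on the R2 array of mouse 5 than on the other 2. That Foxf1 and Foxf2 were also high on those 2 arrays is thus no separate likeness. What tells this mouse's R2 array apart from the other 2 was not tested. Of 12 endothelial markers, 8 were also lowest in the R2 array of mouse 5 among the R2 arrays. The median difference of all 12 from the mean of the other 2 R2 arrays was -0.29. Single markers ran from -0.74 (Tie1) to 0.59 (Esam). The log2 of their summed level was 10.25, 10.36 and 10.56 in R3 (mice 2, 4 and 5), 12.47, 12.24 and 12.12 in R2 and 10.82, 10.78 and 10.53 in R1. Their part in the pattern was not tested.

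**Figure D3:**
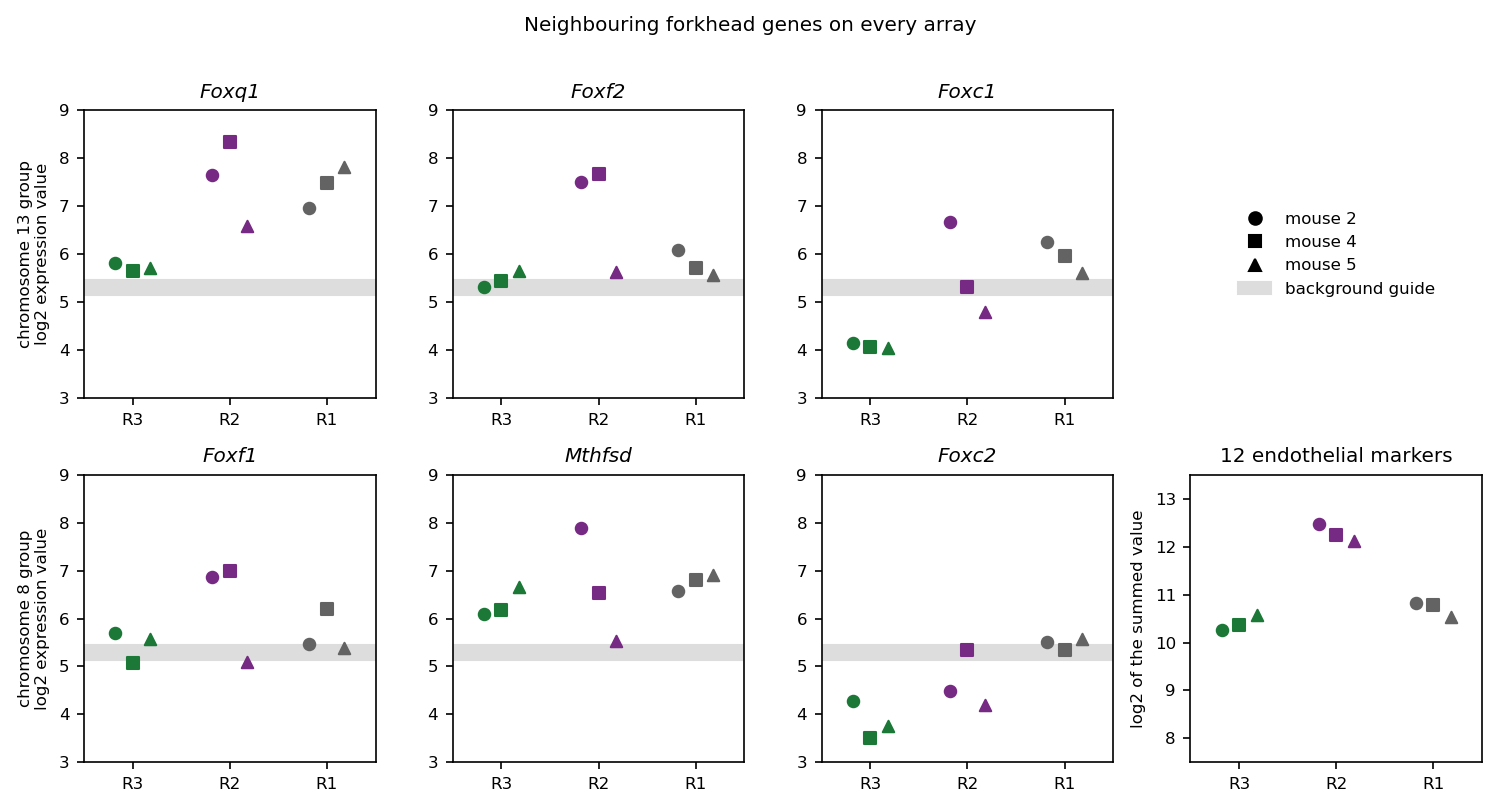
log2 expression values (y axis) on each of the 9 arrays for neighbouring genes on chromosome 13 (top) and chromosome 8 (bottom), with the log2 of the summed level of 12 endothelial markers at the bottom right. Marker shapes stand for mice 2, 4 and 5 and the grey band for the range of the background guide. Foxl1, which is dim and was not lowest in mouse 5, is not drawn. The R2 array of mouse 5 (triangle) is the lowest R2 array for each of the 6 genes drawn. Its endothelial sum of 12.12 is also the lowest of the R2 sums, beside 12.47 and 12.24.

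Of 27 genes of vessels and lymphatics tied to FoxC, FoxF, FoxO and FoxP factors, 16 were called lower and 1 higher in R3 against R2, where 3.06% of all genes were lower and 1.97% higher, and 17 were called higher and 2 lower in R2 against R1. The count of 2 was 0 or 1 when any 1 array of either gate was left out, and 1 with the mouse as a fixed block. In R3 against R1, 6 were called higher and 7 lower (48.1%, beside 18.7% of all genes). The share in R2 against R1 was 70.4%, beside 13.1% of all genes. Kdr, the main receptor for VEGF, averaged 7.48 in R3, 9.46 in R2 and 7.08 in R1, with a change of -1.98 in R3 against R2 (adjusted p = 1.38e-05) and 2.38 in R2 against R1 (adjusted p = 5.06e-06). The endothelial factor Fli1 had changes of -1.58 (adjusted p = 0.000153) and 1.55 (adjusted p = 9.58e-05), and Erg had changes of -2.23 (adjusted p = 0.000101) and 0.75 (adjusted p = 0.0214). The Notch effector Hey2 was the 1 gene of the list that was higher in R3 than in R2, at 0.55 (adjusted p = 0.019), and was lost when the array of mouse 2 of either gate, the R3 array of mouse 4 or the R2 array of mouse 5 was left out. The list median was -0.80 in R3 against R2 and 0.97 in R2 against R1, beside -0.01 and -0.02 over all genes. All 12 endothelial markers were measured, of which 11 were called lower in R3 against R2 and 10 higher in R2 against R1, and 3 were under the guide throughout R3. Kdr, Tek, Cdh5 and Pecam1 stand in both lists, and Flt4 and Prox1 are also among the lymphatic markers above. The counts of these lists are therefore not separate. The endothelial markers in R3 against R1 are given above with Foxc2. The share of endothelial cells in these counts was not tested.

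Of the hedgehog pathway, which acts upstream of Foxf1 and Foxf2 in other mesenchyme, 15 genes were measured. In R3 against R2, 3 were called higher and 2 lower, in R2 against R1 2 in each direction, and in R3 against R1 6 higher and 3 lower. These were 33.3%, 26.7% and 60% of the list, beside 5.03%, 13.1% and 18.7% of all genes. Ptch1, the receptor and a target of the pathway, averaged 12.49 in R3, 12.42 in R2 and 11.61 in R1, with a change of 0.81 in R2 against R1 (adjusted p = 0.00242) and 0.87 in R3 against R1 (adjusted p = 0.0011). The target Hhip, which binds hedgehog ligands, was 1.82 higher in R3 against R2 (adjusted p = 0.00112) and 2.17 higher in R3 against R1 (adjusted p = 0.000145). The coreceptors Cdon and Gas1 fell in the same 2 comparisons, with Cdon at -1.82 (adjusted p = 0.000266) and -3.07 (adjusted p = 5.39e-06), and Gas1 at -1.15 (adjusted p = 0.0024) and -2.32 (adjusted p = 1.37e-05). The ligand Dhh, a product of Schwann cells, averaged 9.46 in R3, 7.00 in R2 and 6.70 in R1. The list median was between 0.0023 and 0.023 in all 3 comparisons, and the count of 6 in R3 against R1 was 3 without the R1 array of mouse 2 or the R3 array of mouse 5.

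In the O class, whose members are held in check by insulin and AKT, Foxo1 was higher in R2 than in R1. Its values were 10.17, 10.18 and 10.06 in R3, 10.33, 10.54 and 10.17 in R2, and 9.95, 9.42 and 9.55 in R1. R3 and R2 overlapped, and both lay above every R1 array. The change was 0.71 in R2 against R1 (SE 0.16, adjusted p = 0.0194), 0.50 in R3 against R1 (adjusted p = 0.0614) and -0.21 in R3 against R2 (adjusted p = 0.56). The call in R2 against R1 was lost without the R2 array of mouse 2 or 4 or the R1 array of mouse 4 or 5 (adjusted p of 0.0542 to 0.0763). Without the R1 array of mouse 2 the change in R3 against R1 was 0.66 (adjusted p = 0.0204). The other 3 Foxo1 probe sets had changes of 0.53, 0.54 and 0.06 in R2 against R1, none of them called.

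Foxo3 was called in no comparison by the probe set that stood for it, which had values of 10.98, 10.65 and 10.09 in R3, 9.60, 9.97 and 10.27 in R2, and 10.26, 10.14 and 9.74 in R1. Its arrays overlapped between all gates, and its mouse 5 arrays ran against the other 2 mice in R3 against R2. The change was 0.63 in R3 against R2 (adjusted p = 0.224) and 0.53 in R3 against R1 (adjusted p = 0.192). Its other 2 probe sets were called higher in R3 against R1, at 0.87 (SE 0.14, adjusted p = 0.00322) and 1.11 (SE 0.15, adjusted p = 0.00113), and 1 of them in R2 against R1, at 0.74 (adjusted p = 0.0145). With the mean of the 3 probe sets, Foxo3 was 0.84 higher in R3 against R1 (adjusted p = 0.00262). Foxo4 averaged 9.07 ± 0.088 in R3, 9.12 ± 0.26 in R2 and 9.16 ± 0.29 in R1 and was not called.

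**Figure D4:**
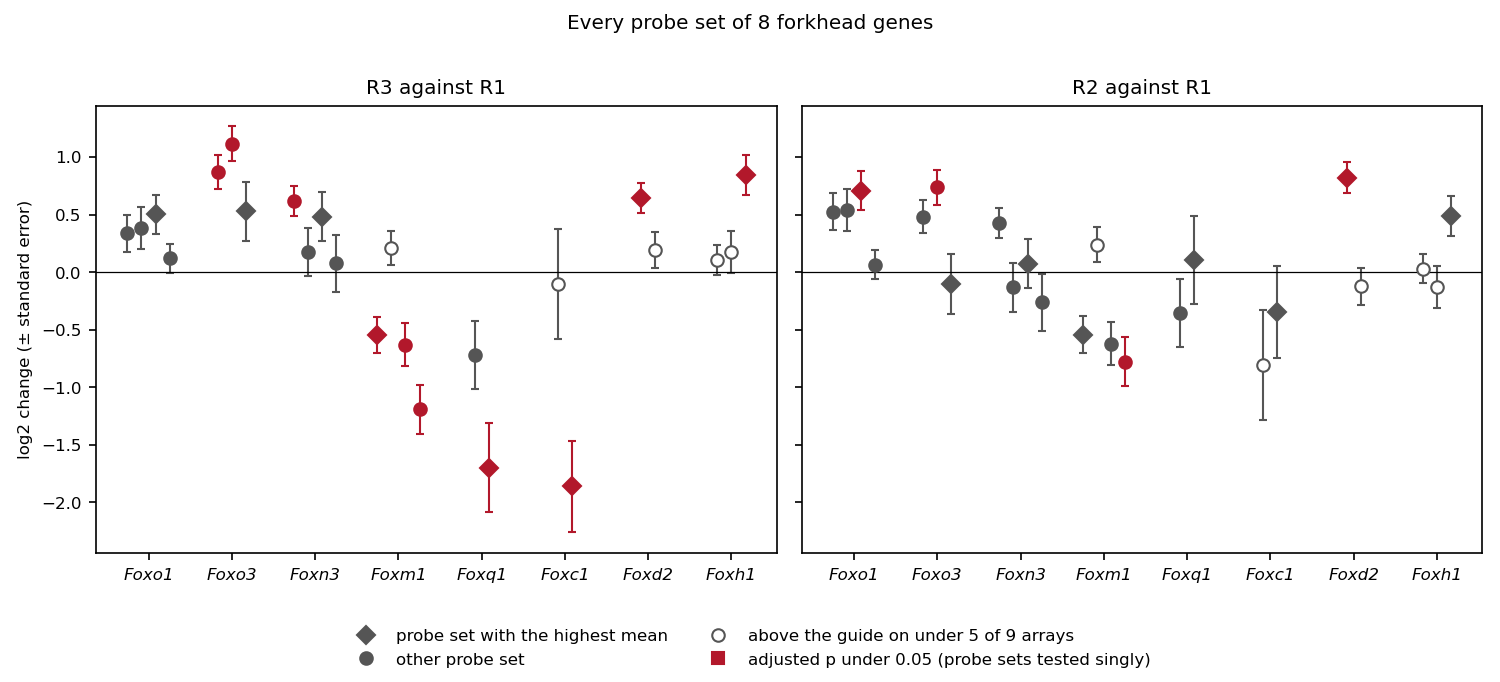
log2 change (y axis, ± standard error) in R3 against R1 (left) and R2 against R1 (right) of every probe set of 8 forkhead genes, with diamonds for the probe set that stands for the gene, open circles for probe sets above the guide on under 5 of 9 arrays, and red for an adjusted p under 0.05 with probe sets tested singly. The 2 further Foxo3 probe sets are red in the left panel while its diamond at 0.53 is not, and the 3 bright Foxm1 probe sets all lie below 0.

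Among 24 genes of the pathway that acts on FOXO factors, none was called in R3 against R2 and 3 (12.5%) were called higher in R2 against R1, where 13.1% of all genes were called. At an unadjusted p under 0.05 the count in R3 against R2 was 4. The comparison of R3 with R1 had 4 higher and 1 lower (20.8%, beside 18.7% of all genes). Both shares lie near those of all genes. Pik3r1, a regulatory subunit of the PI3 kinase, was 0.72 higher in R2 against R1 (adjusted p = 0.0115) and 0.89 in R3 against R1 (adjusted p = 0.00263). The stress kinase gene Mapk8 was 0.78 higher in R2 against R1 (adjusted p = 0.00655) and 0.73 in R3 against R1 (adjusted p = 0.00642). The deacetylase gene Sirt1 was 0.81 higher in R2 against R1 (adjusted p = 0.0209). The count of 4 in R3 against R1 was 2 without the array of mouse 4 of either gate, and the 1 lower gene, Stk4 (-0.63, adjusted p = 0.019), was lost without the R1 array of mouse 2 or 5 or the R3 array of mouse 4.

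Of 33 FOXO target genes, 11 were called higher and 3 lower in R2 against R1, where Foxo1 was higher and where 6.89% of all genes were called higher and 6.16% lower. In R3 against R2, 1 was higher and 5 lower, and in R3 against R1, 8 were higher and 6 lower. These were 18.2% and 42.4% of the list, beside 5.03% and 18.7% of all genes. The list medians were -0.10 in R3 against R2, 0.24 in R2 against R1 and 0.05 in R3 against R1. Depp1 had the lowest p of the list in each comparison, with means of 5.07 in R3, 9.28 in R2 and 7.08 in R1 and changes of -4.21 (adjusted p = 1.42e-06), 2.20 (adjusted p = 3.88e-05) and -2.01 (adjusted p = 3.69e-05) in R3 against R2, R2 against R1 and R3 against R1. Its R3 mean lay under the guide. Il7r, the interleukin 7 receptor of lymphocytes, was lower against R1 in both papilla gates, at -3.25 in R3 (adjusted p = 5.36e-05) and -2.89 in R2 (adjusted p = 0.000148), with means of 3.88 in R3 and 4.23 in R2 that lay under the guide and 7.12 in R1. Such changes are set against dim signals, and 4 of the 33 targets were under the guide throughout R3 and 2 throughout R2 and R1 each. The repressor gene Bcl6 was higher in R3, at 1.36 against R2 (adjusted p = 0.00159) and 1.56 against R1 (adjusted p = 0.000255), and Nos3, the endothelial nitric oxide synthase, was lower in R3 against R2, at -0.97 (adjusted p = 0.00402). The count of 11 in R2 against R1 was 5 to 7 without the array of mouse 2 or 4 of either gate, the count of 5 in R3 against R2 was 3 without the R2 array of mouse 2 or 4 or the R3 array of mouse 4, and the count of 8 in R3 against R1 was 5 without the R1 array of mouse 4. The endothelial markers described above moved in the same comparisons. Of 10 leukocyte markers, 6 were called lower in R3 against R1 and 7 in R2 against R1, with summed log2 levels of 10.58 to 11.25 in R3, 10.35 to 10.91 in R2 and 12.47 to 12.80 in R1, and 2 were under the guide throughout R3 and R2 and 1 throughout R1. Their part in these counts was not tested.

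Foxm1, which drives genes of the passage into mitosis, was lower in both papilla gates than in R1. Its values were 7.08, 7.23 and 6.92 in R3, 7.00, 7.24 and 6.99 in R2, and 7.80, 7.70 and 7.37 in R1. R3 and R2 overlapped, and every R1 array lay above both. The change was -0.54 in R3 against R1 (SE 0.15, adjusted p = 0.0352) and -0.54 in R2 against R1 (adjusted p = 0.0461), against a difference near 0 in R3 against R2 (95% interval -0.34 to 0.34). Both calls were near the threshold: the one in R3 against R1 was lost without the R1 array of mouse 2 or 4 or the R3 array of mouse 2 or 5 (adjusted p of 0.0819 to 0.112). The one in R2 against R1 was lost without any 1 R2 array, the R1 array of mouse 2 or 4, or the R3 array of mouse 2 or 4 (adjusted p of 0.0566 to 0.138). Of the 3 further probe sets, 1 was dim and the other two had changes of -0.63 and -1.19 in R3 against R1, both called (adjusted p = 0.0481 and 0.00465), and of -0.62 and -0.78 in R2 against R1, of which the second was called (adjusted p = 0.0459).

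The mitotic genes known as FOXM1 targets followed the same direction in R3. Of 19 measured, 10 were called lower and 0 higher in R3 against R1 (background of lower calls 10.8%), with Cdc20, an activator of the anaphase complex, at -1.30 (adjusted p = 0.000774) and the checkpoint kinase gene Bub1b at -1.26 (adjusted p = 0.000775). Cdk1, the kinase of mitotic entry, was at -0.88 (adjusted p = 0.00194). In R2 against R1 only Bub1b was called (-0.81, adjusted p = 0.012), and it was lost without the R2 array of mouse 4. In R3 against R2, where Foxm1 itself had no difference that passed the test, Cdc20 (-0.86, adjusted p = 0.0208) and Cenpf, a kinetochore protein (-0.49, adjusted p = 0.0426), were lower, and this count of 2 was 1 with the mouse as a fixed block and 0 without the array of mouse 2 of either gate or the R2 array of mouse 4. The list medians were -0.38 in R3 against R2, -0.33 in R2 against R1 and -0.70 in R3 against R1. All 11 keratinocyte markers were called lower against R1 in both papilla gates, with a list median of -2.81 in R3 and -3.24 in R2. Their summed log2 levels were 11.46 to 12.36 in R3, 11.68 to 11.87 in R2 and 14.46 to 14.94 in R1. Of these markers, 1 was under the guide throughout R3 and R2. Their part in the Foxm1 result was not tested.

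Foxh1, the partner of SMAD proteins in Nodal signalling, had its highest mean in R3. It stood at 6.07, 5.76 and 6.32 in R3, 5.81, 5.51 and 5.75 in R2, and 5.15, 5.07 and 5.38 in R1. R3 and R2 overlapped and both were above R1, where 1 of 3 arrays was above the guide. The change was 0.85 in R3 against R1 (SE 0.17, adjusted p = 0.00692), 0.49 in R2 against R1 (adjusted p = 0.091) and 0.36 in R3 against R2 (adjusted p = 0.305). With the mouse as a fixed block, the change in R2 against R1 was called (adjusted p = 0.0436), but not with the mouse as a random effect (adjusted p = 0.0739). Both other Foxh1 probe sets were under the guide on every array, and with the mean of the 3 the change in R3 against R1 was 0.38 (adjusted p = 0.0729).

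Foxs1, known from sensory neurons and from cells around vessels, was under the guide on all 9 arrays and was called all the same. Its values were 4.61, 4.66 and 4.75 in R3, 4.68, 4.64 and 4.58 in R2, and 5.30, 4.98 and 5.34 in R1. R3 and R2 overlapped, and all R1 arrays were higher. The change was -0.53 in R3 against R1 (adjusted p = 0.0181) and -0.57 in R2 against R1 (adjusted p = 0.0179). Both calls were lost without the R1 array of mouse 2 or 5, the first also without the R3 array of mouse 2 or 4 and the second also without the R2 array of mouse 4 or 5 (adjusted p of 0.0554 to 0.0609). Of 10 markers of pericytes and smooth muscle, 6 were called lower and 2 higher in R3 against R1 and 5 lower and 2 higher in R2 against R1, with summed log2 levels of 12.84 to 13.05 in R3, 13.02 to 13.13 in R2 and 13.12 to 13.20 in R1. The 5 lower in R2 against R1 were 3 without any 1 R2 array or the R1 array of mouse 2 or 4. Their part in the Foxs1 result was not tested. With signals this dim, the data do not show that Foxs1 was expressed in any gate.

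The other members above the guide in at least 1 gate were called in no comparison. The K class, which takes part in the control of glycolysis and autophagy, stayed close between gates, with Foxk1 at 10.44 ± 0.11 in R3, 10.52 ± 0.064 in R2 and 10.28 ± 0.26 in R1, and Foxk2 at 9.72 ± 0.14, 9.62 ± 0.13 and 9.67 ± 0.15 (SD, n = 3 each). Foxk2 had 95% intervals of -0.20 to 0.40 in R3 against R2, -0.35 to 0.25 in R2 against R1 and -0.25 to 0.35 in R3 against R1. Of the J class, Foxj3 averaged 11.10 in R3, 11.21 in R2 and 10.85 in R1, with R1 below every other array, and its change in R2 against R1 was 0.36 (adjusted p = 0.0763). Foxj2 averaged 8.53 in R3, 8.22 in R2 and 8.08 in R1, with a change of 0.45 in R3 against R1 (adjusted p = 0.0867) and no overlap of those 2 gates.

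Foxn3, a repressor of cell cycle genes, averaged 10.66 in R3, 10.26 in R2 and 10.18 in R1 and was not called (0.48 in R3 against R1, adjusted p = 0.151), while 1 of its 3 other probe sets was, at 0.62 (SE 0.13, adjusted p = 0.0099). Foxn2 averaged 9.11 in R3, 9.29 in R2 and 8.97 in R1. In the P class, Foxp1, known for keeping hair follicle stem cells quiescent, averaged 9.88 in R3, 9.54 in R2 and 9.69 in R1 (0.34 in R3 against R2, adjusted p = 0.242). Foxp2 averaged 6.44, 6.34 and 6.33, and Foxp4 7.89, 8.20 and 7.53 in R3, R2 and R1, with an SD of 0.67 over the R1 arrays. A further Foxp2 probe set, under the guide on all 9 arrays, was called higher against R1, at 0.78 in R3 (adjusted p = 0.0108) and 0.86 in R2 (adjusted p = 0.0095). Foxp3, the factor of regulatory T cells, averaged 7.00 in R3, 6.91 in R2 and 6.99 in R1 through its only probe set, although leukocyte markers were lower in the papilla gates, with 6 of 10 called lower in R3 against R1 and 7 in R2 against R1. Its 95% interval in R3 against R1 was -0.32 to 0.35.

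Of 16 genes of FOXP partners and corepressors, 1 was called higher in R3 against R2, and 3 were called higher and 1 lower in each papilla gate against R1. These were 6.25% in R3 against R2, beside 5.03% of all genes. Against R1 they were 25% in each gate, beside 18.7% of all genes for R3 and 13.1% for R2. Tle2, a Groucho corepressor, averaged 8.85 in R3, 7.79 in R2 and 7.01 in R1, with changes of 1.06 in R3 against R2 (adjusted p = 0.00506) and 1.84 in R3 against R1 (adjusted p = 7.33e-05). The corepressor gene Ctbp2 was 1.17 higher in R3 against R1 (adjusted p = 0.000964) and 1.22 in R2 against R1 (adjusted p = 0.00109). Ctbp1, its relative, was lower in both, at -0.58 (adjusted p = 0.00943) and -0.46 (adjusted p = 0.0352), and the second call was lost when any 1 R2 or R1 array was left out. The list medians were 0.02 in R3 against R2, 0.16 in R2 against R1 and 0.19 in R3 against R1.

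**Figure D5:**
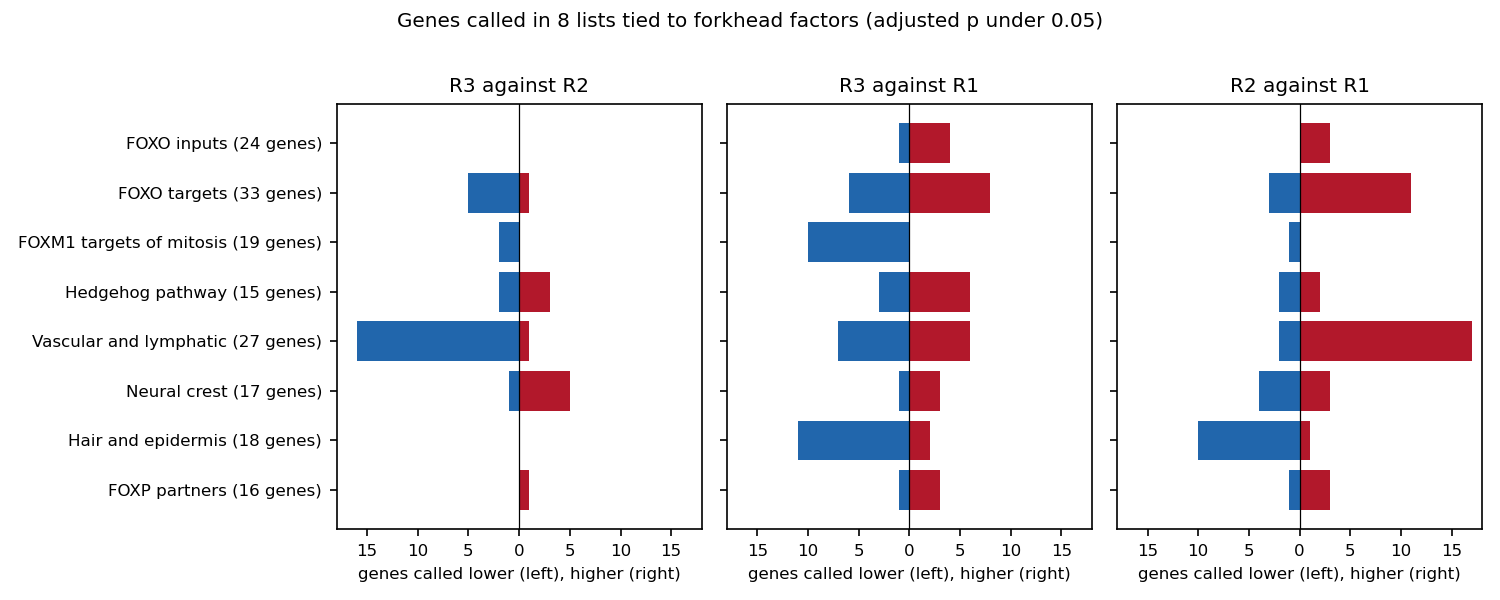
Number of genes called higher (red, right of 0) and lower (blue, left of 0) at an adjusted p under 0.05 in 8 gene lists tied to forkhead factors, with the number measured after each name, for R3 against R2, R3 against R1 and R2 against R1. The vascular list has 16 genes lower in R3 against R2 and 17 higher in R2 against R1, and the FOXM1 target list has 10 lower in R3 against R1.

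The last 13 members were under the guide on at least 1 array of every gate and were called in no comparison: Foxa1, Foxa2 and Foxa3, the pioneer factors of gut and liver, Foxb1, Foxb2, Foxd4, Foxe3, Foxi1, Foxj1, the factor of motile cilia, Foxl1, Foxl2, the ovary factor, Foxn1 and Foxn4. Their values ran from 2.49 to 5.43. Foxn1, the nude gene of hair and epidermis, was among them, with means of 4.44 in R3, 4.30 in R2 and 4.68 in R1 and a change of -0.38 in R2 against R1 (adjusted p = 0.105). Of 18 hair and epidermis genes tied to Foxn1, Foxq1, Foxe1 and the FoxI genes, 11 were called lower and 2 higher in R3 against R1 (1 higher without the array of mouse 5 of either gate), 10 lower and 1 higher in R2 against R1, and 0 in R3 against R2. The share called was 72.2% in R3 against R1 and 61.1% in R2 against R1, beside 18.7% and 13.1% of all genes. The unadjusted count in R3 against R2 was 5. Trp63 and Krt10 are also among the keratinocyte markers above, and Lef1 is among the papilla markers, so the counts of these lists are not separate. All 11 keratinocyte markers were called lower against R1 in both papilla gates. Their part in the hair and epidermis counts was not tested. Krt27 and Krt25, keratins of the inner root sheath, were at -4.77 (adjusted p = 4.18e-05) and -4.45 (adjusted p = 0.000459) in R3 against R1. Lef1, the Wnt effector that papilla cells also express, was at 1.51 (adjusted p = 0.000261). Foxq1, by the probe set that stood for it, was lower in R3 (-1.70 against R1) while its R2 and R1 arrays overlapped. Its second probe set had a change of -0.35 in R2 against R1 (adjusted p = 0.518, with probe sets tested singly).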

How the data were processed

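RNA of each gate was amplified with the WT-Ovation Pico system and hybridised to 1-colour arrays, per the labels' protocols. The authors deposited log2 expression values per probe set, for which the submitters' processing notes name RMA. Neither its version nor a joint normalization of all 9 arrays is stated in those notes. RMA equalises the arrays' distributions, so a shift common to most genes would not show, and it gives no detection call. Depth has no meaning for arrays.

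The platform annotation gave 1 gene symbol to 34958 of 45101 probe sets, several to 932 and none to 9211. Probe sets of the last 2 kinds and 64 controls were left out. A gene with several probe sets was read through the one of highest mean, which applied to 21 of the 37 members (82 probe sets in all). Gates and mouse numbers came from the labels. The 3 gates were compared over 18193 genes with limma 3.58.1 in R 4.3.3. The linear model had a coefficient for each gate, all 9 arrays, no block and no filter, with moderated errors and Benjamini-Hochberg adjustment over all genes of a comparison. The 3 comparisons share arrays and are not independent. Arrays that share a number share a mouse, which is where the pairing comes from; deviations from the gate means correlated at 0.0068 to 0.18 within a mouse and at -0.16 to 0.041 between mice. Alternatives were the mouse as a fixed block or a random effect, leaving out each array, the 6 arrays of a comparison alone, other scalings, other choices of probe set, a filter on dim genes, another variance model and a 2-fold minimum. Errors are SD over 3 mice or the moderated SE. The procedure was also run on simulated data with independent errors and no mouse effect. That run cannot show how it handles a shared mouse or a single deviating array.

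The members, gene lists and marker lists were chosen with earlier results of these data known. Values on every array are given for each member called in at least 1 comparison, group means for others above the guide, and up to 3 genes with the lowest p in a comparison for each list. Foxf1, Foxf2 and Foxo3 are given in full for their neighbours or probe sets, and Snai1, Stk4, Sox10, Nos3, Sirt1, Lef1, Ctbp1, Ptch1, Dhh, Hey2 and Il7r, where outside that rule, were chosen after their values were seen. Promoter windows came from RefSeq (GRCm38.p6) by gene symbol, and its gene order was used for neighbours. Python 3.11.15 with pandas 2.3.3, numpy 2.4.6 and, for plots, matplotlib 3.10.9 served for the remaining steps.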

Additional observations from a re-analysis of the deposited data

How the results depend on the processing

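Single genes were followed under the alternatives for the 10 called members and for Foxf1, Foxf2 and Foxo3, in each comparison. Of these values, 632 kept their direction and their side of the threshold, 57 lost a call, 14 gained one and 14 changed sign. The 632 include values of comparisons in which the gene was not called, which could not lose a call. The tally is therefore no measure of how well calls held. The count of members called lower in R3 against R2 was 1, and became 2 with the mouse as a fixed replicate block and under the trended, robust variance model, 0 with the 6 arrays of the comparison or the mean of all probe sets, and 0 to 4 with single arrays left out. The higher count there was 2. It was 1 for genes brighter than the median gene and 1 with a 2-fold minimum. In R2 against R1 the higher count of 3 was 2 to 5 with single arrays left out and 0 with a 2-fold minimum, and the lower count of 3 was 0 to 2 with single arrays left out, 1 for the brighter genes and 0 with a 2-fold minimum. In R3 against R1 the higher count of 4 was 2 for the brighter genes and 1 with a 2-fold minimum, and the lower count of 5 was 3 to 5 with single arrays left out, 2 for the brighter genes and 3 with a 2-fold minimum. The filter on dim genes and the 2-fold minimum remove members by construction, and the cause of the other moves was not tested.

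Changes of sign were all in values that were not called. In R2 against R1, leaving out single arrays gave -0.89 to 0.051 for Foxc1, -0.27 to 0.070 for Foxo3 and -0.30 to 0.58 for Foxq1, and the mean of probe sets gave 0.37 for Foxo3 and -0.12 for Foxq1. In R3 against R2, Foxd2 was 0.068 with the mean of probe sets, Foxm1 was -0.078 to 0.078 with single arrays left out and 0.037 with a second quantile normalization, and Foxs1 was -0.019 with that normalization. In R3 against R1, Foxf1 was -0.40 to 0.010 with single arrays left out and 0.057 with the mean of probe sets. The mouse as a fixed block added calls of Foxc1 (R3 against R2, adjusted p = 0.0372) and Foxh1 (R2 against R1, adjusted p = 0.0436) and took away none from a member, and as a random effect it changed no call of a member. Foxm1 lost its call in R2 against R1 under 12 of 19 alternatives. The counts for gene lists under alternatives were added after seeing the data.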
